A study of Mus musculus with 6 samples.

Results

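The 10 genes described here encode smooth-muscle type actins (Acta2, Actg2), proteins that bind actin filaments or regulate their use by myosin (Tagln, Cnn1, Cald1, Myl9), tropomyosins (Tpm1, Tpm2, Tpm4), and serum response factor itself (Srf). They were chosen by symbol, and each symbol matched 1 Ensembl gene ID (GENCODE M21) among the 51912 IDs in the count table. All 10 were among the 19017 genes tested. Cultures of primary osteoblasts, which lay down bone, came from the skull caps (calvaria) of 1 d old C57BL/6J pups that carried loxP-flanked Mark3 alleles (Mark3 flox/flox). The medium of all 6 cultures held 10% serum. The 3 libraries called WT received GFP adenovirus and the 3 called Mark3-KO received CRE adenovirus, each for 24 h. All 6 cultures therefore carried the flox/flox alleles and an adenovirus, although the labels give the genotype of the GFP group as wild-type, and the recombinase and the deletion cannot be told apart. Nothing in the labels tells whether replicates are separate cultures, so the p-values reflect how far these libraries spread, which may be technical.

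Contractile cells build stress fibres from actin filaments that tropomyosin coats and myosin pulls on. Many of the genes that encode these fibres are transcribed under serum response factor (SRF), which binds a DNA element called the CArG box together with MRTF coactivators. MRTF proteins are held in the cytoplasm by free actin monomers and released when monomers are used up in filaments, so the state of the actin cytoskeleton feeds back on its own genes. In bone, smooth muscle actin is known as a marker of mesenchymal progenitors and of contractile stromal cells, and calvarial cultures spread on plastic form stress fibres.

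CArG boxes in the promoters are shown because they are the sequence that links these genes to SRF. RefSeq promoter windows on GRCm38.p6, 250 bases long and ending at the base before the transcription start, were held for 8 of the 10 members (9 windows, Cald1 having 2). Actg2 and Tagln had no entry in the table. The CArG box pattern reads the same on both strands, so 1 search covers both, and no second motif was searched. A CArG box was present for 2 members, Srf and Myl9. A box with 1 of its 6 inner A or T bases replaced by G or C was present for Acta2 and, beside its CArG box, for Myl9. Of all 32851 windows of that length, 1.47% held a CArG box and 8.59% held a box of either kind. A match is a description of letters and not evidence of binding.

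The sites that matched are printed 5′ to 3′ on the strand of the gene, with the box in capitals and 10 bases to either side. The first base of each box lies 82 and 62 bases before the start for Srf, 161 and 99 for Myl9, and 84 and 34 for Acta2. In GENCODE M21 both Acta2 sites fall inside the first annotated exon, since that annotation starts the gene further upstream.
Srf chr17:46556225-46556254 (minus strand): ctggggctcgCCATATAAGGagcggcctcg
Srf chr17:46556205-46556234 (minus strand): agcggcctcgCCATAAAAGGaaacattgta
Myl9 chr2:156775293-156775322 (plus strand): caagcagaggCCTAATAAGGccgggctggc
Myl9 chr2:156775355-156775384 (plus strand): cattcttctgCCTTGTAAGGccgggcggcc
Acta2 chr19:34255438-34255467 (minus strand): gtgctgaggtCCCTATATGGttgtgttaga
Acta2 chr19:34255388-34255417 (minus strand): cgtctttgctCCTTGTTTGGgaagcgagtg

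The promoter stretches of Srf and Myl9, up to their first GENCODE exon base, give the context of these boxes, with boxes of both kinds in capitals. That of Srf is 237 bases and that of Myl9 is 206 bases.
Srf chr17:46556176-46556412 (minus strand): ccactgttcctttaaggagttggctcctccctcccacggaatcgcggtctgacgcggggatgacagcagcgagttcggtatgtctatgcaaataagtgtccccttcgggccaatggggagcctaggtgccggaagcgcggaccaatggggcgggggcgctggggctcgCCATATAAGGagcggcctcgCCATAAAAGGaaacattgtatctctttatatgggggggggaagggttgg
Myl9 chr2:156775214-156775419 (plus strand): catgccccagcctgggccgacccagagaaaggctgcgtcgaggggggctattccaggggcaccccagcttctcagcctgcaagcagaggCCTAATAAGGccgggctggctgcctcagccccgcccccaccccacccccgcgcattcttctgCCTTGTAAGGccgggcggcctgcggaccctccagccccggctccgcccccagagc

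The libraries held 56925883 to 71445243 counts each. Mark3, the deleted kinase gene, measured 113, 118 and 118 CPM (counts scaled to library size, with TMM factors) in WT and 47.6, 52.4 and 44.1 CPM in Mark3-KO. Its log2 fold change was -1.27 with an SE of 0.10 (edgeR adjusted p 0.0153), and 41.4% of the WT level was left. The libraries also stood apart by the GC content of transcripts. In the 1897 tested genes with the highest GC content (from 57.3%), the median log2 difference from the mean of all libraries was 1.15, 0.72 and 0.11 for the WT libraries, against -0.21, -0.71 and -1.0 for the Mark3-KO libraries. Fold changes of the members are therefore given as measured and with a correction for GC content fitted per library. Osteoblast markers summed to 43200, 32300 and 21600 CPM in WT, against 21500, 19400 and 14600 CPM in Mark3-KO, most of it from Col1a1, Col1a2 and Sparc, while the late marker genes Bglap and Dmp1 stayed under 1 CPM as group means. Of the 11 osteoblast markers, 0 passed in edgeR's test (1 higher and 5 lower at an unadjusted p below 0.05, 1 and 5 by the DESeq2 Wald test, 0 by limma-voom). With the GC correction their estimates ran from -0.96 for Col1a2 to 0.74 for Sparc, and those of Sp7 and Alpl turned from lower to higher. Their median log2 fold change was -0.62, and -0.47 with the GC correction. The part of this difference in the levels of the contractile genes was not tested.

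Of the 10 members, 0 passed in edgeR's quasi-likelihood test at a Benjamini-Hochberg adjusted p below 0.05. Of all 19017 tested genes 41 (0.216%) passed, 9 higher (0.0473%) and 32 lower (0.168%) in Mark3-KO. At an unadjusted p below 0.05 there were 9 members, 2 higher and 7 lower, against 45.7% of all tested genes, 20.8% higher and 24.8% lower. Adjusted p-values of 5 members stood at 0.0506, just outside the threshold, and at an adjusted p below 0.1 the same test gave 9 members (43.7% of all tested genes). The DESeq2 Wald test called 6 members, 1 higher and 5 lower (36.4% of all tested genes, 14.6% higher and 21.7% lower), and limma-voom called 0 (0.142%). With the GC correction 0 passed in edgeR (0.405% of all tested genes), and 2 members had an unadjusted p below 0.05 (25.1%). A fit that blocked on the replicate number, which the labels do not tie to a shared source, called 9 members (44.6%), and 1 member, Acta2, when joined with the GC correction (5.27%). Without Mark3-KO replicate 1 edgeR called 8 members and without WT replicate 3 it called 6, while 0 passed without any one of the other libraries. Over all tested genes, leaving out these 2 libraries gave 6265 and 6460 calls. The counts of these same 2 libraries, of opposite groups, were closer to each other (chi-square of 66.4 per degree of freedom over genes) than those of any 2 libraries of 1 group (76.4 to 234.5). The WT and Mark3-KO levels in CPM were fully separated for 8 members, as for 53.3% of all tested genes, and lower in Mark3-KO for 6 of them, as for 27.5%. The median log2 fold change of the 10 members was -0.46, beside 0.02 over all tested genes, and -0.03 beside 0.01 after the GC correction. In bulk RNA, fewer cells of a type and less RNA per cell cannot be told apart.

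**Figure D1:**
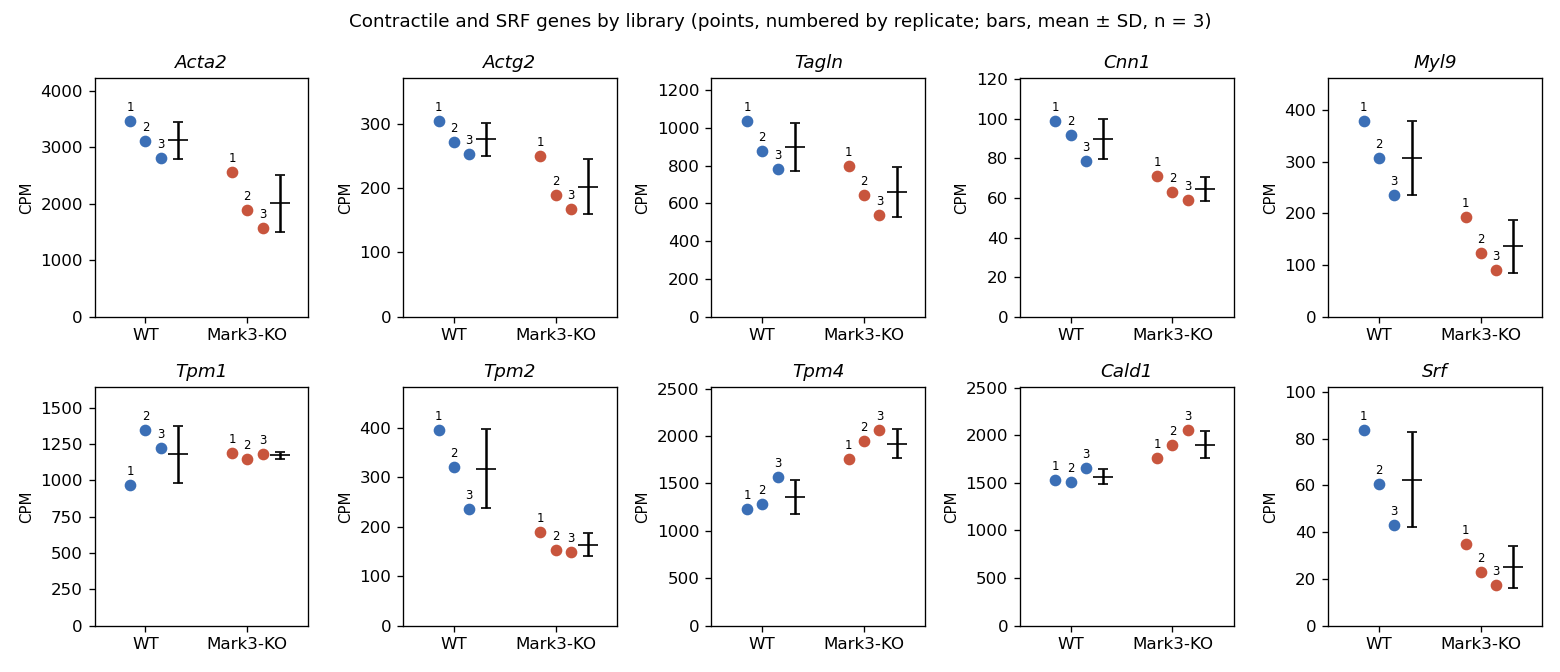
CPM (vertical axis, from 0) of each of the 10 genes in the 3 WT and 3 Mark3-KO libraries (points numbered by replicate, bars giving mean ± SD, n = 3). The groups overlap for Tagln and Tpm1, and Mark3-KO lies above WT for Tpm4 and Cald1 and below it for the other 6 genes. The values carry no GC correction, which turns the sign of Cald1, Cnn1, Srf and Tpm1.

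Acta2 (chr19:34241090-34255590, GRCm38, minus strand) encodes smooth muscle alpha actin, the actin of contractile stress fibres. It measured 3459, 3107 and 2801 CPM in WT and 2562, 1893 and 1563 CPM in Mark3-KO. All WT libraries lay above all Mark3-KO libraries, and the gap between WT replicate 3 and Mark3-KO replicate 1 was the narrowest. The means were 3122 ± 329 and 2006 ± 509 CPM (SD, n = 3), so that Mark3-KO held 64.3% of the WT level. The Acta2 log2 fold change was -0.64 with an SE of 0.19 (edgeR adjusted p 0.0559) and stayed at -0.59 (SE 0.16, edgeR adjusted p 0.112) with the GC correction. It ran from -0.86 to -0.49 with any 1 library left out.

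Actg2 (chr6:83512905-83536265, minus strand) encodes the gamma actin of visceral smooth muscle. Its levels were 304, 271 and 253 CPM in WT and 249, 189 and 168 CPM in Mark3-KO. The groups were separated only narrowly, between WT replicate 3 and Mark3-KO replicate 1. The Actg2 log2 fold change was -0.45 with an SE of 0.16 (edgeR adjusted p 0.0807), and -0.05 (SE 0.07, edgeR adjusted p 0.725) with the GC correction. Acta2 thus kept most of its fold change under the correction and Actg2 did not, but the difference between them was not tested. The muscle actin genes Acta1, Acta2, Actc1 and Actg2 encode near-identical proteins, and how reads shared between them were counted is not given in the sources used here. Their sum was 3771, 3386 and 3058 CPM in WT and 2813, 2084 and 1732 CPM in Mark3-KO, which is almost wholly Acta2.

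Per length of exon, Acta2 was the most abundant of the 10 members in WT and Srf the least. Scaled as TPM (counts per kilobase of exon over their sum in the library), Acta2 stood at 4778 ± 187, Tpm4 at 2096 ± 424 and Tagln at 1516 ± 117 (SD, n = 3) in WT. Myl9 followed at 882 ± 148, then Tpm1 at 615 ± 125 and Actg2 at 596 ± 19.0. Cald1 (440 ± 52.5) and Tpm2 (364 ± 68.6) came next, then Cnn1 (110 ± 5.06) and Srf (71.8 ± 18.9). Between neighbours in this order, the levels of Myl9 and Tpm1, of Tpm1 and Actg2, and of Cald1 and Tpm2 differed by less than the sum of their SDs, and the other neighbours differed by more. In Mark3-KO, Tpm4 measured 2958, 3508 and 3711 TPM and Acta2 measured 4337, 3418 and 2825 TPM, so that the order of these genes differed between Mark3-KO libraries. The exon lengths join all annotated isoforms, so these levels depend on the gene models.

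Within the 6 conventional actin genes, the share of Acta2 did not separate the groups. Acta2 took 39.0, 37.5 and 41.9% of actin transcripts per length in WT, against 45.8, 35.3 and 48.3% in Mark3-KO. The cytoplasmic actin genes Actb and Actg1, which every cell uses, made up most of the rest. Actg1 was uneven in Mark3-KO, at 22.5, 41.3 and 17.9% of the actins against 29.8 to 34.5% in WT. Actg2 took 4.61 to 5.34% in WT and 4.98 to 7.31% in Mark3-KO, with overlap. Acta1, the skeletal actin, was under 0.12% everywhere. The actin shares carry no GC correction, and transcripts of Acta2 (49.9% GC) differ in GC content from those of Actb (54.4%) and Actg1 (55.1%). With the GC correction, log2 fold changes were -0.59 (SE 0.16) for Acta2, -0.14 (SE 0.12) for Actb and -0.20 (SE 0.42) for Actg1. The differences between these genes were not tested.

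**Figure D2:**
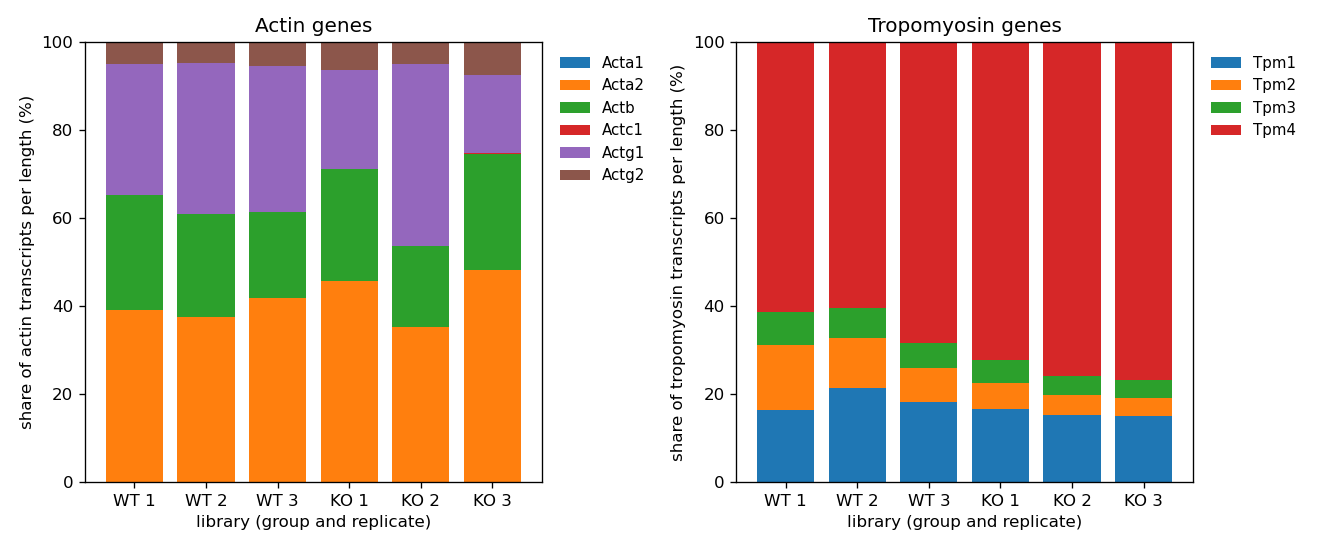
Share (%) of each gene among 6 actin genes (left) and 4 tropomyosin genes (right), per length of exon, in each library (stacked bars, KO standing for Mark3-KO). Tpm4 holds 60.5 to 68.4% of tropomyosin transcripts in WT and 72.3 to 76.8% in Mark3-KO, while the Acta2 share overlaps between the groups. The shares carry no GC correction.

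The tropomyosin genes gave estimates in both directions. Tropomyosin lies along actin filaments and governs access of myosin, and the genes Tpm1, Tpm2 and Tpm4 each make several isoforms that counts per gene do not resolve. Tpm2 (chr4:43514711-43523765, minus strand) measured 395, 321 and 235 CPM in WT and 190, 153 and 148 CPM in Mark3-KO, all lower than in WT. Its log2 fold change was -0.95 with an SE of 0.21 (edgeR adjusted p 0.0506), and -0.03 (SE 0.07, edgeR adjusted p 0.851) with the GC correction.

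Tpm4 (chr8:72134975-72153142, plus strand), which encodes a tropomyosin of non-muscle cells, had estimates in the opposite direction. It measured 1228, 1286 and 1564 CPM in WT and 1753, 1949 and 2060 CPM in Mark3-KO, with every Mark3-KO library above every WT library. The Tpm4 log2 fold change was 0.50 with an SE of 0.13 (edgeR adjusted p 0.0506). With the GC correction it was 0.31 (SE 0.08, edgeR adjusted p 0.105), still higher in Mark3-KO. Tpm4 shares 134 exon bases (6.08% of its exon length) with the antisense gene Gm26586, which had 215 to 376 counts per library, against at least 70845 for Tpm4.

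Tpm1 (chr9:67022590-67049406, minus strand) measured 965, 1343 and 1223 CPM in WT and 1189, 1146 and 1181 CPM in Mark3-KO. The WT libraries spanned the Mark3-KO libraries on both sides, and WT replicate 1 was the lowest of the 6. Its log2 fold change was -0.01 with an SE of 0.14 (edgeR adjusted p 0.979), and 0.11 with the GC correction and 0.10 with libraries scaled by size alone, so no direction can be given for Tpm1. Among the 4 tropomyosin genes, per length, Tpm4 took 61.3, 60.5 and 68.4% in WT, against 72.3, 76.0 and 76.8% in Mark3-KO. The Tpm2 share was 14.9, 11.4 and 7.79% in WT, against 5.94, 4.52 and 4.18% in Mark3-KO. Both shares separated the groups. With 3 libraries against 3, an exact permutation test cannot go below a two-sided p of 0.1, so the shares are given without one. These shares carry no GC correction, and transcripts of Tpm4 (47.1% GC) and Tpm2 (56.2% GC) differ in GC content.

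Myl9 (chr2:156775420-156781658, plus strand) encodes the regulatory light chain of smooth muscle and non-muscle myosin, whose phosphorylation switches contraction on. It measured 378, 307 and 235 CPM in WT and 193, 123 and 91.0 CPM in Mark3-KO. The highest Mark3-KO library lay below the lowest WT library. The Myl9 log2 fold change was -1.18 with an SE of 0.30 (edgeR adjusted p 0.0506), and -0.23 (SE 0.11, edgeR adjusted p 0.263) with the GC correction.

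Tagln (chr9:45929619-45936058, minus strand) encodes transgelin, an actin cross-linking protein of smooth muscle. It measured 1034, 878.5 and 780.9 CPM in WT and 797.5, 644.1 and 537.5 CPM in Mark3-KO. The groups overlapped, since Mark3-KO replicate 1 lay above WT replicate 3. Its log2 fold change was -0.44 with an SE of 0.18 (edgeR adjusted p 0.0956), and -0.24 (SE 0.11, edgeR adjusted p 0.248) with the GC correction.

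Most of the exon sequence of Tagln is also annotated to an antisense gene. Gm48529 covers 1241 of its 1988 exon bases (62.4%) on the other strand, and the library kit (TruSeq RNA version 2) does not mark strand, so reads of Tagln and Gm48529 cannot be told apart there. Gm48529 was counted at 212, 196 and 125 CPM in WT and 91.3, 79.2 and 56.9 CPM in Mark3-KO. The sum of Tagln and Gm48529 was 1246, 1075 and 906 CPM in WT and 889, 723 and 594 CPM in Mark3-KO. The groups of this sum did not overlap, unlike those of Tagln alone. Pcsk7 shares a further 108 exon bases with Tagln (5.43%) and measured 14.0 to 40.2 CPM.

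Cnn1 (chr9:22099216-22109630, plus strand) encodes calponin, which binds actin and restrains myosin. It measured 98.8, 91.8 and 79.0 CPM in WT and 70.98, 63.3 and 59.2 CPM in Mark3-KO, without overlap. The Cnn1 log2 fold change was -0.48 with an SE of 0.12 (edgeR adjusted p 0.0506), but 0.04 (SE 0.06, edgeR adjusted p 0.709) with the GC correction. On the corrected log2 CPM scale its 6 levels lay between 6.19 and 6.32.

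Cald1 (chr6:34598500-34775473, plus strand) encodes caldesmon, which has a long form in smooth muscle and a short form in other cells that counts per gene do not resolve. It measured 1525, 1509 and 1659 CPM in WT and 1761, 1893 and 2051 CPM in Mark3-KO. As for Tpm4, all Mark3-KO libraries were above all WT libraries. The Cald1 log2 fold change was 0.28 with an SE of 0.10 (edgeR adjusted p 0.0753), but -0.03 (SE 0.05, edgeR adjusted p 0.80) with the GC correction.

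Srf (chr17:46548329-46556175, minus strand), the transcription factor gene whose promoter holds 2 CArG boxes in the stretch printed above, had the lowest log2 fold change of the members. It measured 83.6, 60.6 and 43.0 CPM in WT and 35.1, 23.1 and 17.2 CPM in Mark3-KO, and the groups did not overlap. Within each group, replicate 1 was the highest and replicate 3 the lowest. The Srf log2 fold change was -1.31 with an SE of 0.33 (edgeR adjusted p 0.0506). It turned to 0.22 (SE 0.13, edgeR adjusted p 0.336) with the GC correction, where the log2 CPM levels were 4.94, 5.06 and 5.41 in WT, against 5.43, 5.38 and 5.29 in Mark3-KO. Srf transcripts have the highest GC content of the members (62.5%), so no direction can be given for Srf.

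**Figure D3:**
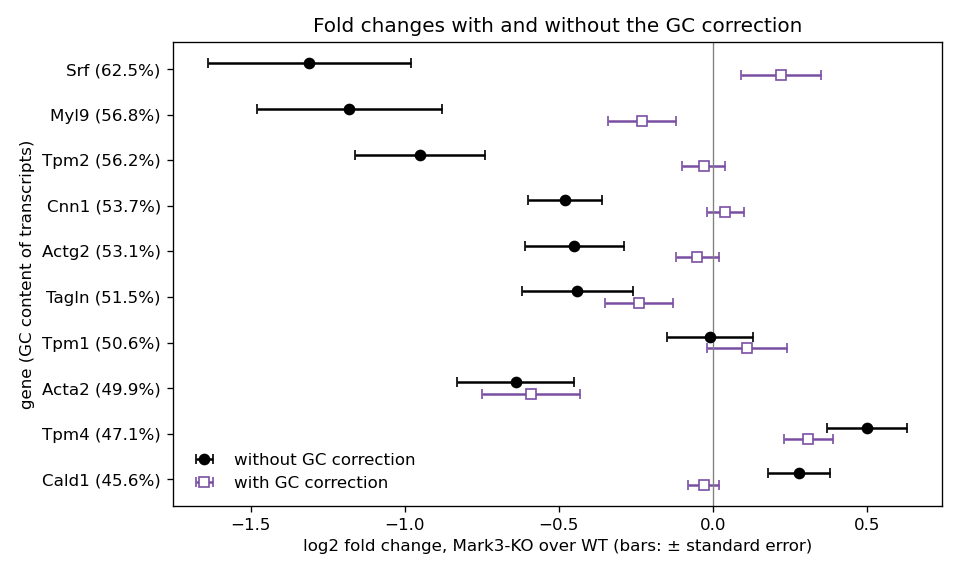
Log2 fold change of Mark3-KO over WT (horizontal axis, bars giving ± SE) for each gene, ordered by the GC content of its transcripts, without (circles) and with (squares) the GC correction. Acta2 moves from -0.64 to -0.59 and Tpm4 from 0.50 to 0.31, while Srf moves from -1.31 to 0.22.

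Fold changes of the members followed the GC content of their transcripts much as all tested genes did. Among the 10 members, Cald1 had the lowest GC content (45.6%) and Srf the highest (62.5%). Tested genes within 1 percentage point of the GC content of Cald1 had a median log2 fold change of 0.32, those near Cnn1 (53.7% GC) a median of -0.49, and those near Srf a median of -1.46. For 7 members the fold change lay between the quartiles of the genes of like GC content. Acta2 lay below them and Tpm4 above, and Tagln (-0.44) lay just below a lower quartile of -0.43.

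Among 2048 genes with a GC content near that of Acta2 (49.9%), 6.64% had a lower log2 fold change, and the quartiles were -0.25 and 0.18. Near Tagln (51.5% GC), 24.2% of genes were lower. Near Tpm4, 86.1% of genes had a lower log2 fold change, and the quartiles were 0.01 and 0.38. These positions describe the libraries and are not tests.

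**Figure D4:**
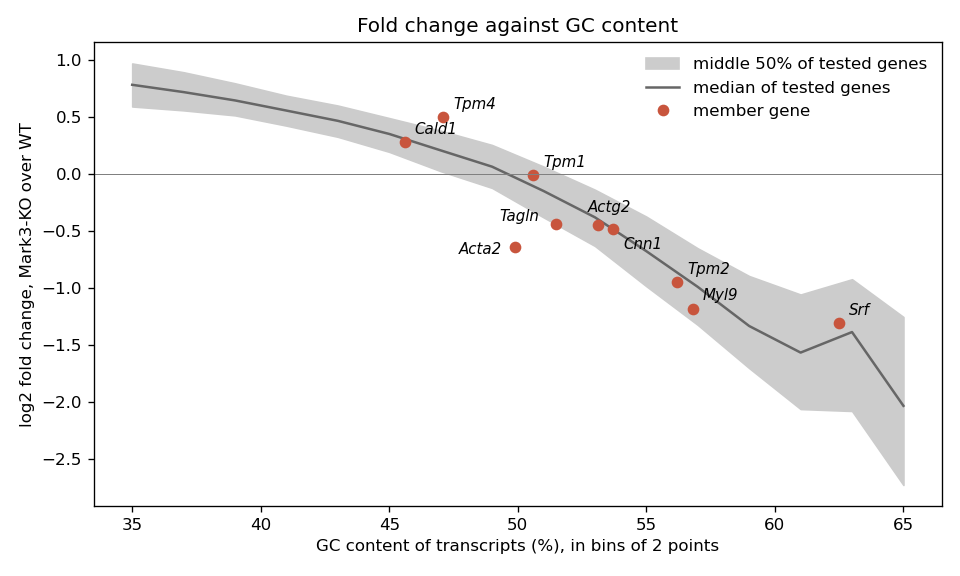
Log2 fold change of Mark3-KO over WT (vertical axis) against the GC content of transcripts in % (horizontal axis), with the 10 member genes as points and the median and middle 50% of tested genes in bins of 2 points as a line and band. Acta2 (-0.64) lies below the band and Tpm4 (0.50) above it, Tagln (-0.44) lies at its lower edge, and the other 7 genes lie within it.

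The cofactors that bring SRF to its targets gave 0 of 6 past the threshold in edgeR's test (2 at an unadjusted p below 0.05, both lower, 1 by the DESeq2 Wald test and 0 by limma-voom). Mrtfa, the actin-sensing coactivator, measured 72.6, 47.8 and 29.1 CPM in WT and 22.3, 6.43 and 4.82 CPM in Mark3-KO. The Mrtfa log2 fold change was -2.15 with an SE of 0.65 (edgeR adjusted p 0.0549), and -1.02 (edgeR adjusted p 0.174) with the GC correction. Its paralog Mrtfb measured 49.5 ± 2.49 and 55.3 ± 6.29 CPM (log2 fold change 0.16, edgeR adjusted p 0.318, and 0.24 with the GC correction). Myocd, the coactivator particular to heart and smooth muscle, was near the limit of detection at 0.601 ± 0.148 and 0.528 ± 0.139 CPM. Among the ternary complex factors, Elk3 measured 77.4 ± 5.79 and 60.3 ± 6.98 CPM (-0.36, edgeR adjusted p 0.0648, and -0.31 with the correction). The log2 fold change of Elk1 was -0.16, and -0.23 with the correction, and that of Elk4 was 0.17, and 0.13 with the correction.

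Of 28 other cytoskeletal genes known as SRF and MRTF targets, 0 passed in edgeR's test, while 3 higher and 17 lower had an unadjusted p below 0.05. The DESeq2 Wald test called 2 higher and 15 lower, and limma-voom 0. Of all tested genes, 20.8% were higher and 24.8% lower at that unadjusted p, and 14.6% and 21.7% by DESeq2. Their median log2 fold change was -0.52, and -0.09 with the GC correction. Smoothelin (Smtn), a stress fibre protein of contractile smooth muscle, measured 94.1 ± 43.7 CPM in WT, against 20.5 ± 9.81 CPM in Mark3-KO (log2 fold change -2.20, edgeR adjusted p 0.0506). Zyxin (Zyx), found where stress fibres meet focal adhesions, measured 401 ± 167 and 118 ± 47.0 CPM (-1.76). The focal adhesion protein gene Tgfb1i1 measured 154 ± 52.3 and 63.7 ± 5.70 CPM (-1.28), and Acta1 measured 5.02 ± 2.16 and 0.924 ± 0.419 CPM (-2.43). With the GC correction, the estimates on the log2 scale were -0.84 for Smtn, -0.38 for Zyx, -0.42 for Tgfb1i1 and -1.35 for Acta1, with edgeR adjusted p-values of 0.0764 to 0.147. Without it, 5 of the 28 estimates were higher and 23 lower. The 3 higher genes counted above were Nexn (0.65), Dstn (0.44) and Pdlim5 (0.25), which came to 0.06, 0.13 and 0.05 with the correction. Corrected estimates of the 28 reached 0.54, for Tagln2, which stood at -0.41 without it.

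Regulators of actin assembly and contraction, which act on SRF through the pool of free actin, gave 0 of 15 past the threshold in edgeR's test (5 higher and 8 lower at an unadjusted p below 0.05, 4 and 6 by the DESeq2 Wald test, 0 by limma-voom). The formin gene Diaph3, whose product nucleates actin filaments, measured 69.3 ± 6.49 and 109 ± 8.30 CPM (log2 fold change 0.65, edgeR adjusted p 0.0506; 0.25 with the GC correction). Rock2, a kinase that drives myosin contraction, measured 406 ± 68.3 and 628 ± 90.8 CPM (0.63, and 0.05 with the correction). On the lower side were the cofilin phosphatase gene Ssh1, at 54.0 ± 5.94 and 31.6 ± 3.37 CPM (-0.78, and -0.21 with the correction), and the GTPase gene Rhoc, at 145 ± 31.4 and 76.4 ± 22.2 CPM (-0.92, and 0.04). Serum-responsive immediate early targets of SRF gave 0 of 8 past the threshold in edgeR's test (4 lower at an unadjusted p below 0.05, 4 by the DESeq2 Wald test, 0 by limma-voom). Junb, an AP-1 subunit gene, measured 34.2, 9.51 and 2.39 CPM in WT and 1.76, 0.688 and 0.456 CPM in Mark3-KO, so that WT replicate 1 stood far above the rest (log2 fold change -3.97, edgeR adjusted p 0.0506, and -2.14 with the GC correction). Egr3 (-1.42), Ier2 (-1.65) and Nr4a1 (-1.05), also transcription regulators of the early serum response, came to -0.97, -0.08 and -0.17 with the correction. The median log2 fold change of the 8 was -1.09, and -0.12 with the GC correction.

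Pericyte and smooth muscle markers summed to 643, 552 and 402 CPM in WT and 325, 256 and 148 CPM in Mark3-KO. In edgeR's test 0 of 9 passed, with 1 higher and 6 lower at an unadjusted p below 0.05 (1 and 5 by the DESeq2 Wald test, 0 by limma-voom). Their median log2 fold change was -0.61, and -0.30 with the GC correction. Myh11, the myosin heavy chain that defines mature smooth muscle, measured 12.2 ± 1.72 and 8.88 ± 1.03 CPM (log2 fold change -0.46, edgeR adjusted p 0.0761), and -0.02 with the correction. Most of the sum came from Pdgfrb, at 365.9 ± 56.96 and 169.6 ± 76.6 CPM (-1.11, and -0.44 with the correction), and Cspg4, at 94.4 ± 48.9 and 23.9 ± 8.89 CPM (-1.98, and -0.75), while the pericyte gene Rgs5 lay the other way, at 7.47 ± 0.98 and 11.7 ± 1.24 CPM (0.65, and 0.14 with the correction). Notch3, a receptor gene of mural cells, measured 34.4 ± 13.8 and 13.5 ± 3.92 CPM (-1.35, and 0.02 with the correction). The corrected estimates of the 9 markers ran from -0.83 for Des to 0.55 for Mcam. Mcam measured 13.65 ± 1.40 and 12.54 ± 1.99 CPM, with a log2 fold change of -0.12 before the correction.

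Skeletal muscle markers summed to 12.3 to 20.6 CPM in WT and 4.91 to 10.5 CPM in Mark3-KO. Of the 12, 8 were tested and 0 passed in edgeR's test (4 lower at an unadjusted p below 0.05, 4 by the DESeq2 Wald test, 0 by limma-voom). All 8 estimates were below 0, with a median log2 fold change of -1.12, and -0.67 with the GC correction. The corrected estimates ran from -1.35 for Acta1 to 0.07 for Tnnt1. Myh3 had means of 4.6 ± 1.2 against 1.7 ± 0.71 CPM, WT first (-1.42, and -0.92 with the correction). Mylpf had 2.41 ± 0.73 against 0.96 ± 0.44 CPM (-1.31, and -1.03). The groups did not overlap for either gene. Myf5 had 0 counts in all 6 libraries, and Myod1 had 10 or fewer in each. Endothelial markers summed to 4.17 to 4.59 CPM and macrophage markers to 32.3 to 37.8 CPM over all libraries, with overlap between the groups. Estimates went both ways, 2 higher and 2 lower for endothelial genes, and 3 higher and 2 lower for macrophage genes. Pecam1, at 11 to 39 counts per library, had a log2 fold change of 1.29, and 1.33 with the GC correction. Among macrophage genes, Adgre1 came to 0.53 (0.38 with the correction) and Csf1r to -0.51 (0.07). In edgeR's test 0 of 4 tested endothelial and 0 of 5 macrophage genes passed (1 and 3 at an unadjusted p below 0.05, 1 and 3 by the DESeq2 Wald test, 0 by limma-voom). The part of these cells in the levels of the contractile genes was not tested.

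Among the genes whose levels were most like those of Acta2 over the 6 libraries, by the root mean square difference of centred log2 CPM among 14183 other protein-coding genes, were Nxn (0.030) and Smyd5 (0.034). Those most like Srf were Man2c1 (0.013), Cd248 (0.035) and Acy1 (0.036). Man2c1 measured 48.6, 35.6 and 25.4 CPM in WT and 20.8, 13.5 and 10.2 CPM in Mark3-KO.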

How the data were processed

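The authors deposited raw counts, whole numbers for 51912 Ensembl IDs, with 1 column for each of 6 libraries. The genome build GRCm38 and the tools HISAT2 2.0.5, FastQC, DESeq2 and StringTie are named per the submitters' processing notes. Their settings, and how shared reads were counted, are not given in the sources used here. Symbols, positions, exon lengths and transcript GC content came from GENCODE M21 (GRCm38), which matched 51633 of the IDs.

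Mark3-KO was compared with WT in 1 fit over the whole table with edgeR 4.0.16 (R 4.3.3): filterByExpr, TMM scaling, the quasi-likelihood test and Benjamini-Hochberg adjustment, threshold 0.05. SE is the log2 fold change over the root of F. The GC correction was a natural spline (6 degrees of freedom) of log2 CPM deviations (prior count 2) on GC content per library, entered as an offset. It had values for 18965 of 19017 tested genes. The script was tested on simulated data.

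The alternatives tried were limma-voom (limma 3.58.1), the Wald test of DESeq2 1.42.0, its size factors, scaling by library size alone, 2 other filters, a replicate block with and without the GC correction, a threshold of 0.1, and leaving out each library. No library was a copy of another (chi-square of 66.4 or more per degree of freedom). The members, the 9 lists and the tests were chosen with earlier results of these data known. Named genes were all members, Mark3, up to 4 genes per list by smallest p, and the 3 nearest to Acta2 and to Srf. One of these is not reported here. Others, such as Mrtfb, Myocd, Myh11, Myod1, Actb and Actg1, were named after their values were seen.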

Additional observations from a re-analysis of the deposited data

How the results depend on the processing

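The count of members past the threshold, 0 with edgeR, became 6 with a filter of 1 CPM in 3 libraries, 6 with the DESeq2 Wald test, 4 with library size alone and 9 at an adjusted p below 0.1. It stayed at 0 with DESeq2 size factors, limma-voom, no filter and the GC correction, and ran from 0 to 8 with 1 library left out. Over the same settings the count of all tested genes, 41, became 5266, 6915, 4510 and 8317. It was 77 with the GC correction and 27 with limma-voom, and ran from 0 to 6460 with 1 library left out. The count of list members, 0, became 36, 50, 31 and 57, and ran from 0 to 53. With library size alone the median over all genes, 0.02 on the log2 scale, became 0.13, and 2190 higher and 2320 lower genes passed, against 9 and 32. With the replicate block 9 members, 62 list members and 8487 of all genes passed. With the replicate block and the GC correction there were 1 (Acta2, edgeR adjusted p 0.0385), 13 and 1003. The labels give shared replicate numbers but no shared source, so the numbers were not taken as pairs. Deviations of same-numbered libraries correlated at 0.329, -0.032 and 0.292 across genes, and those of WT and Mark3-KO libraries of different number at -0.355 to 0.091. With the GC correction the same-numbered values were 0.094, -0.027 and 0.065. They cannot decide whether the numbers mark pairs, because levels of GC-rich genes fell from replicate 1 to replicate 3 in both groups.

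Signs turned for 4 members. With the GC correction, without and with the replicate block, the log2 fold change was 0.04 and 0.04 for Cnn1, -0.03 and -0.03 for Cald1, 0.22 and 0.23 for Srf, and 0.11 and 0.13 for Tpm1. Tpm1 was also at 0.02 with the 1 CPM filter, 0.10 with library size alone, 0.01 with limma-voom, 0.01 with the replicate block, and -0.14 to 0.09 with 1 library left out. Acta2, Actg2, Tagln, Myl9, Tpm2 and Tpm4 kept their sign in all 15 alternatives, Acta2 between -0.86 and -0.49 and Tpm4 between 0.31 and 0.61. The cause of these moves was not tested. At these depths counting error is small beside the spread between libraries.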

Other observations

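Actg1, a cytoplasmic actin gene outside the 10 members, measured 3197, 3461 and 2678 CPM in WT and 1522, 2681 and 701 CPM in Mark3-KO. After the GC correction, the protein-coding genes with levels most like those of Acta2 over the 6 libraries were Arhgef17 (root mean square difference 0.032), Gm9780 (0.032) and Rps14 (0.035).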
